A study of Mus musculus with 2 samples.

Results

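Adipose progenitors are sorted and classified by proteins on their surface, and 10 genes that encode such markers are described here in cultured stromal vascular cells of mouse fat. They are Dpp4, Pi16, Cd55, Ly6a, Cd34, Cd24a, Icam1, F3, Pdgfra and Pdgfrb. They were chosen by name, and all 10 were among the 27995 genes listed in both count matrices. The cells came from wild-type C57BL/6N mice of 8 to 12 weeks. Tissue was pooled, and the stromal vascular fraction, the cells left after collagenase digestion once adipocytes are removed, was grown in high-glucose medium to 80% confluency. Cultures were made from inguinal white adipose tissue (iWAT) and from interscapular brown adipose tissue (iBAT). Per the labels, each depot had 4 cultures: 1 had no growth factor, and the others had 48 h of FGF1, of FGF2 or of FGF8, each at 5.5 nM. From every culture 10000 cells were loaded, and all were run together. FGF8 and the vehicle are where the labels and the published methods differ, as they do on the age of the mice, and this was not resolved. Each depot is 1 library on a microwell platform, and the files used here give no treatment for a cell. All values therefore describe 2 mixed cultures, no treatment was compared with another, and no comparison has a replicate or a test.

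In adipose tissue, fibroblast-like progenitors carry the receptors for platelet-derived growth factor. In fat of living mice, DPP4, PI16 and CD55 mark interstitial progenitors, cells of the connective tissue sheath that are held to give rise to other progenitors. ICAM1 marks committed preadipocytes, and CD142, the coagulation initiator encoded by F3, marks a population described as restraining adipocyte formation and called adipogenesis-regulatory. CD34, SCA-1 (encoded by Ly6a) and CD24 are the classical sorting antigens of white adipocyte progenitors. The assay counted transcripts, so nothing here measures the proteins that antibodies bind. No freshly isolated cells were analysed here, so a level in culture does not show whether a marker was gained or lost there.

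Cells were kept when they had over 200 but under 7500 genes and less than 30% mitochondrial counts. They numbered 29744 in iWAT and 28215 in iBAT. The count is of unique molecular identifiers (UMIs), 1 for each captured transcript. The libraries held 503611913 and 815235820 UMIs over all barcodes, kept cells spanned 5790 to 58214 and 10532 to 67493 UMIs, and 8 cell barcodes occurred in both libraries. Cells with at least 1 Col1a1 UMI and none of Epcam, Ptprc and Pecam1 are called stromal-gated. They were 22960 iWAT cells (77.2%) and 26859 iBAT cells (95.2%), with medians of 17073 and 27199 UMIs. A Col1a1 UMI was present in 99.9% of kept cells of each library, so the gate worked through the 3 excluded genes. The libraries also differed in sex-linked transcripts, which the labels do not describe. In stromal-gated cells Xist stood at 319.6 counts per 1000000 UMIs (CPM) in iWAT and at 0.0532 in iBAT, and Eif2s3y, a Y-linked gene, at 0.00248 and 40.4. Depot, library and sex cannot be told apart.

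All 10 genes are protein-coding, and positions are those of GENCODE M39 on GRCm39. The interstitial markers were Dpp4 at chr2:62159798-62242576 (minus strand), Pi16 at chr17:29536654-29549567 (plus) and Cd55 at chr1:130366469-130390926 (minus). The sorting antigens were Ly6a at chr15:74863840-74869880 (minus), Cd34 at chr1:194621029-194647172 (plus) and Cd24a at chr10:43454280-43460264 (plus). Icam1 was at chr9:20926672-20940113 (plus) and F3 at chr3:121516610-121528820 (plus). Pdgfra was at chr5:75311994-75358876 (plus). The 250 bases before the start site are shown for Dpp4 and Cd34, the members furthest apart between the libraries in either direction, and for F3, detected in most cells of both. They are RefSeq sequences of GRCm38.p6, read 5′ to 3′ on the strand of the gene, at chr2:62412232-62412481 (minus), chr1:194938571-194938820 (plus) and chr3:121723287-121723536 (plus). Capitals mark TATAAA, the AP-1 core TGANTCA and the GC box GGGCGG on either strand.
Dpp4: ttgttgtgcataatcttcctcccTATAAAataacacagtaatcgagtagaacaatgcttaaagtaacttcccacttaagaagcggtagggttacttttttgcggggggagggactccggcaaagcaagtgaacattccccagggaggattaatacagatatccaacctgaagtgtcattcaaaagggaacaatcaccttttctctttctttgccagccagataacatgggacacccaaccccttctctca
Cd34: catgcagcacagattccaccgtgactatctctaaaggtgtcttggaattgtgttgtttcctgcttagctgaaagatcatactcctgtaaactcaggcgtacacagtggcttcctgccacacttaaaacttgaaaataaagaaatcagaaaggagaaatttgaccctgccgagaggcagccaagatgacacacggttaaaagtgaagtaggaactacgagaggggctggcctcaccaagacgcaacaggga
F3: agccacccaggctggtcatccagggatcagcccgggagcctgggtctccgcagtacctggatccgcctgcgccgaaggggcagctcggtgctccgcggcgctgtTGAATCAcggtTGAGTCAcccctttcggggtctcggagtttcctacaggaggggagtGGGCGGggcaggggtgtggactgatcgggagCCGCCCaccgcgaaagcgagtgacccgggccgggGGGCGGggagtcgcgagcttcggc
The Dpp4 window held 1 TATAAA and 4 CpG dinucleotides, and the Cd34 window held none of the motifs and 6 CpG. The F3 window held 2 TGANTCA, 3 GGGCGG and 24 CpG, with 70% G and C. Of 32851 promoter windows of the same length, 12.4% held TATAAA, 6.75% TGANTCA and 32.7% GGGCGG. Of the 10 members, 7 had an entry in the promoter table, and Ly6a, Cd24a and Pdgfrb did not.

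Between the stromal-gated cells of the libraries, Cd34, Ly6a and Pdgfra were higher in iBAT, and Dpp4 and Cd24a were higher in iWAT. Levels are UMI counts of a gene per 1000000 UMIs of the same cells. They are not divided by transcript length and are compared between libraries, not between genes. Intervals are exact and at 95%, and they cover counting error only. A gene with at least 10 CPM in 1 library was called when its levels differed 2-fold or more. Of the 9 members above that floor 5 were called, 3 higher in iBAT and 2 higher in iWAT. Of all 8981 genes above the floor 8.41% were called, 4.11% higher in iBAT and 4.30% higher in iWAT. Dpp4, Cd55, Cd34 and Cd24a reached the floor in the library where they were higher and not in the other.

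**Figure D1:**
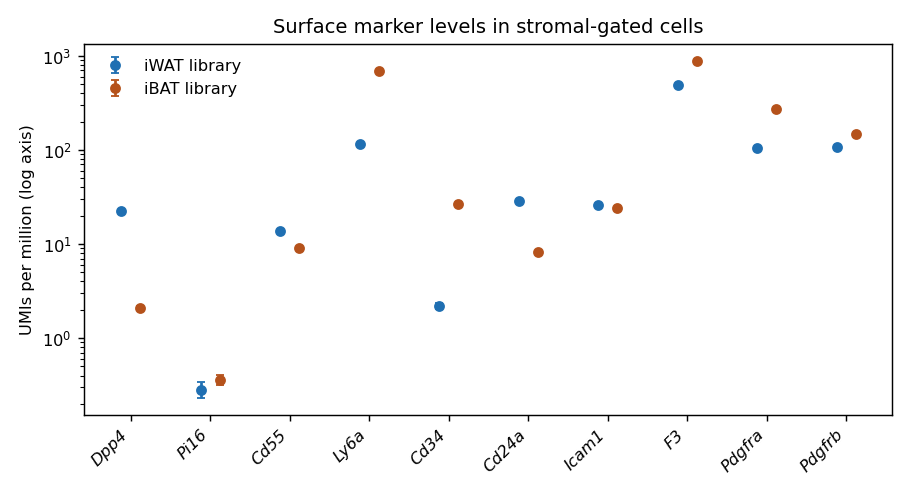
Level of each marker in stromal-gated cells, in CPM on a log axis, by library; points are the level of 1 library and bars its 95% Poisson interval. Dpp4 stood at 22.6 in iWAT and 2.11 in iBAT, Cd34 at 2.20 and 26.7, and Pi16 below 1 in both.

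Among the interstitial markers, Dpp4, a membrane peptidase, stood at 22.6 CPM (22.1 to 23.1) in iWAT and 2.11 CPM (2.01 to 2.22) in iBAT. It was thus 10.7-fold (10.2 to 11.3) higher in iWAT. Pi16, which encodes peptidase inhibitor 16, was close to absent from both libraries. It had 114 UMIs among 22960 iWAT cells and 273 among 26859 iBAT cells, or 0.282 and 0.363 CPM, and was the member under the floor. Cd55, which encodes a membrane protein that shields cells from complement, stood at 13.6 CPM in iWAT and 9.06 in iBAT, a ratio of 1.504 (1.45 to 1.56) towards iWAT that missed the 2-fold limit. Of the 3 interstitial markers only Dpp4 was called, and Pi16 could not be.

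The sorting antigens went in opposite directions. Ly6a, a lipid-anchored surface protein gene, stood at 114 CPM (113 to 115) in iWAT and 681 CPM (679 to 683) in iBAT, 5.97-fold (5.91 to 6.02) higher in iBAT. Cd34, a sialomucin gene, stood at 2.20 CPM (2.06 to 2.35) in iWAT and 26.7 CPM (26.3 to 27.1) in iBAT, 12.2-fold (11.4 to 13.0) higher in iBAT. Cd24a, which encodes a small, heavily glycosylated surface protein, stood at 28.3 CPM (27.8 to 28.9) in iWAT and 8.15 CPM (7.95 to 8.36) in iBAT, 3.48-fold (3.37 to 3.58) higher in iWAT. Counts of Cd34 in iWAT were few, at 888 UMIs, where iBAT had 20098.

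Icam1, an adhesion ligand for leukocyte integrins, was nearly level at 25.7 CPM (25.2 to 26.2) in iWAT and 24.0 CPM (23.7 to 24.4) in iBAT. The F3 level was 488 CPM in the iWAT and 881 CPM in the iBAT cells, a ratio of 1.80 (1.79 to 1.81) that stayed under the limit. Pdgfra, the receptor gene in general use for adipose progenitors, stood at 104 CPM and 269.8 CPM, 2.60-fold (2.58 to 2.63) higher in iBAT. Pdgfrb, whose product is also found on mural cells and which lies at chr18:61178212-61218133 (plus), stood at 108 and 147 CPM, a ratio of 1.36 (1.34 to 1.37).

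Some of these genes share annotated 3′ sequence with other genes, and reads themselves were not examined. The last 500 bases of each coding transcript were cut into 50-base words and sought on both strands of other genes' transcripts. All 451 words of Icam1 also lay in Gm47079. Of the Ly6a words 32.9% lay in Ly6c1, Ly6i and others, and of the Pi16 words 10.5% lay in Gm46603. Stromal-gated cells held 70 and 57 Gm47079 UMIs beside 10370 and 18079 of Icam1. Cd24a and Pdgfra shared 3.09% and 4.33% of such words with other genes and the remaining members none. How reads with several matches were counted is not given in the sources used here. The levels of Ly6a, Icam1 and Pi16 may be affected, and by how much was not tested.

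Genes that accompany these markers in published progenitor classes were counted by the same rule, under which 4.11% of all genes above the floor were higher in iBAT and 4.30% higher in iWAT. Of the 12 interstitial genes 7 were above the floor. Sema3c, a guidance factor gene, was 2.64-fold higher in iBAT, and Creb5, a transcription factor gene, was 2.93-fold higher in iWAT. Mfap5, a microfibril gene, stood at 864 CPM in iWAT and 554 in iBAT, and Fn1 (fibronectin) at 1543 and 1595. Of the 12 committed preadipocyte genes 9 were above the floor, and 4 were higher in iBAT. These were Dlk1, an inhibitor of adipocyte formation (1.48 CPM in iWAT, 62.3 in iBAT), Cebpa and Pparg, transcription factors of adipogenesis (6.77-fold and 3.04-fold), and Fabp4, a fatty acid carrier (2.90-fold). Sparcl1, a matricellular gene, was 2.04-fold higher in iWAT. Sema3c, Dlk1 and Sparcl1 reached the floor in the library where they were higher and not in the other.

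Of the 9 regulatory genes, which accompany CD142, 7 were above the floor. Mgp, an inhibitor of matrix calcification, stood at 28.2 CPM in iWAT and 587 in iBAT. Meox2, a homeobox gene, was 7.28-fold and Cygb (cytoglobin) 2.22-fold higher in iBAT. Fmo2, a monooxygenase gene, and Abcg1, a lipid transporter gene, were 4.43-fold and 3.08-fold higher in iWAT. Of 11 other surface marker genes 10 were above the floor, and Ly6c1, a relative of Ly6a, and Vcam1, an adhesion molecule gene, were 7.28-fold and 2.29-fold higher in iBAT. Meox2, Fmo2, Abcg1 and Ly6c1 likewise reached the floor in 1 library only, the one where they were higher. Over the genes above the floor, the median log2 ratio of iBAT over iWAT was 0.44 for the members, -0.16 for the interstitial, 0.64 for the committed, 0.49 for the regulatory and 0.28 for the other surface genes, against 0.07 for all genes.

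The same markers were then followed across cell classes, each gated on transcripts of genes that are no members. Epcam-gated, Ptprc-gated and Pecam1-gated cells had 2 or more UMIs of that gene and none of the other two. Within the stromal gate, 2 or more UMIs of Rgs5, Cdh15 or Adipoq with a second marker set narrower classes. The iWAT library held 4455 Epcam-gated cells (14.98% of kept cells), and the iBAT library held 3. All 8 epithelial markers were at 10 CPM and 3-fold over the other cells in the iWAT class, as were all 8 immune and all 8 endothelial markers in the Ptprc-gated and Pecam1-gated classes of both libraries. The same held for all 7 myogenic markers in 122 iBAT Cdh15-gated cells and all 7 adipocyte markers in 71 iBAT Adipoq-gated cells. The Rgs5-gated classes met 4 of 7 mural markers in iWAT and 3 of 7 in iBAT and are called by their gate. Each of these counts includes the gating genes that are on its list, which the gate itself raised. The cells in no narrower class, called remaining stromal cells, numbered 22835 and 25740, and levels called stromal-gated include the narrower classes too. Cd24a stood at 6.77 CPM in the remaining stromal cells of iBAT, against 8.15 CPM in all its stromal-gated cells. The Cdh15-gated class had 2 cells in iWAT.

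**Figure D2:**
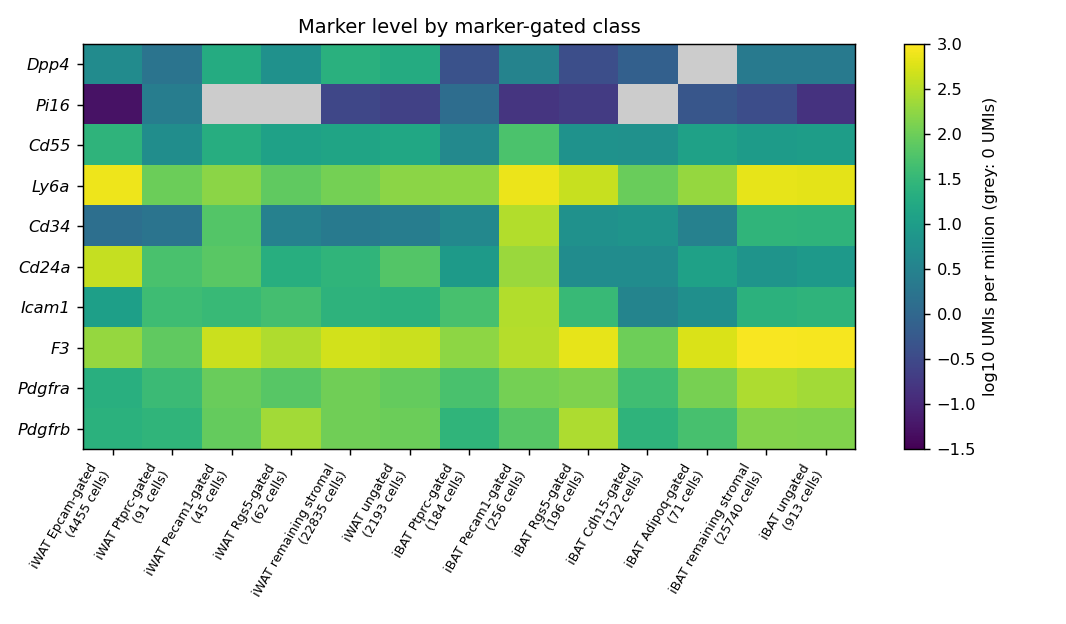
Level of each marker (rows) in each reported gated class of at least 20 cells (columns, with cell numbers), as log10 CPM; grey marks 0 UMIs. Ly6a and Cd24a are highest among iWAT classes in Epcam-gated cells (757 and 403 CPM), and Cd34 and Icam1 are highest of all in the Pecam1-gated iBAT cells (302 and 299).

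Much of the Ly6a and Cd24a signal of the iWAT culture lay outside the stromal gate. Epcam-gated iWAT cells stood at 757 CPM (750 to 764) for Ly6a and 403 CPM (398 to 408) for Cd24a, against 114 and 28.3 in stromal-gated cells. They held 45.1% of the 96187 Ly6a UMIs and 62.2% of the 37077 Cd24a UMIs of kept iWAT cells. Over all kept cells the Ly6a ratio was 3.54 towards iBAT and the Cd24a ratio 7.56 towards iWAT, where the stromal-gated ratios were 5.97 and 3.48. Cd55 was also higher in this class, at 26.3 CPM against 13.6. Dpp4 stood at 4.66 CPM (4.12 to 5.25), Icam1 at 10.8, F3 at 193, Pdgfra at 21.6 and Pdgfrb at 23.8, all lower than in stromal-gated iWAT cells. In that order, they stood at 20.61%, 42.16%, 39.61%, 20.89% and 22.03% of the stromal-gated level. In Epcam-gated iWAT cells 7 mesenchymal genes outside the members and the gate summed to 24.85% of their stromal-gated level. The part of stromal RNA in the Epcam-gated levels was not tested.

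Of the iBAT classes, the Pecam1-gated cells carried several of the progenitor markers. Their 256 cells stood at 302 CPM (288 to 315) for Cd34, 299 (286 to 313) for Icam1, 206 (195 to 218) for Cd24a and 53.4 (47.9 to 59.3) for Cd55. Each of these was above the stromal-gated iBAT level, and their Ly6a level of 749 CPM (728 to 770) overlapped that of the iWAT Epcam-gated cells. CD34 and ICAM1 are known on endothelium as well as on progenitors. Their Dpp4 level was 3.24 CPM (2.00 to 4.95). In iWAT 45 Pecam1-gated cells had 47 Cd34 UMIs, or 61.9 CPM (45.5 to 82.4), against 2.20 CPM in stromal-gated cells. Those iWAT cells also stood at 440 CPM for F3 and 94.9 for Pdgfra, close to 488 and 104 in stromal-gated iWAT cells. The part of stromal RNA in the Pecam1-gated classes was not tested.

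Among classes of at least 20 cells, Pdgfrb was highest in the Rgs5-gated cells of each library, at 240 CPM (211 to 272) in iWAT and 279 CPM (265 to 294) in iBAT. Those iBAT cells stood at 676 CPM for F3 and 137 for Pdgfra, both under the stromal-gated level. The 71 Adipoq-gated iBAT cells had 0 Dpp4 UMIs, where 3 UMIs would be 1.51 CPM. They had 11 Icam1 UMIs (5.53 CPM) and stood at 195 CPM for Ly6a, 546 for F3, 118 for Pdgfra and 48.2 for Pdgfrb, all below the stromal-gated cells. Cd55 and Cd24a were not lower there, at 12.1 CPM each (7.73 to 17.9). Their stromal-gated iBAT levels of 9.06 and 8.15 CPM lay within that interval. Myogenic Cdh15-gated iBAT cells stood at 93.3 CPM (81.9 to 106) for Ly6a, 100.1 (88.4 to 113) for F3 and 42.3 (34.8 to 50.9) for Pdgfra, below the stromal-gated level. For Dpp4, Pi16, Cd55 and Cd24a the stromal-gated level lay within the interval of these cells.

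The share of cells with a transcript was compared after each cell had been thinned at random to 10000 UMIs. That left 19446 iWAT cells, 3514 being too shallow, and all 26859 iBAT cells. F3 was found in 73.5% (72.9 to 74.2) of iWAT and 81.4% (80.9 to 81.8) of iBAT cells. Pdgfrb was found in 59.7% and 68.7%, and Pdgfra in 54.7% (54.0 to 55.4) and 80.2% (79.8 to 80.7). Ly6a was found in 37.4% (36.7 to 38.1) of iWAT and 79.2% (78.7 to 79.7) of iBAT cells. Icam1 was found in 18.8% and 16.7%, and Cd55 in 11.2% and 7.30%. Dpp4 was found in 17.0% (16.5 to 17.6) and 1.75% (1.60 to 1.91), Cd24a in 16.4% and 5.10%, and Cd34 in 2.08% (1.88 to 2.29) and 14.0% (13.6 to 14.4). Without thinning, Dpp4 was found in 24.3% and 4.04% of cells and Ly6a in 45.4% and 89.6%. Pi16 was found in 62 iWAT and 98 iBAT cells, and 1 and 3 of them had 2 or more UMIs.

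**Figure D3:**
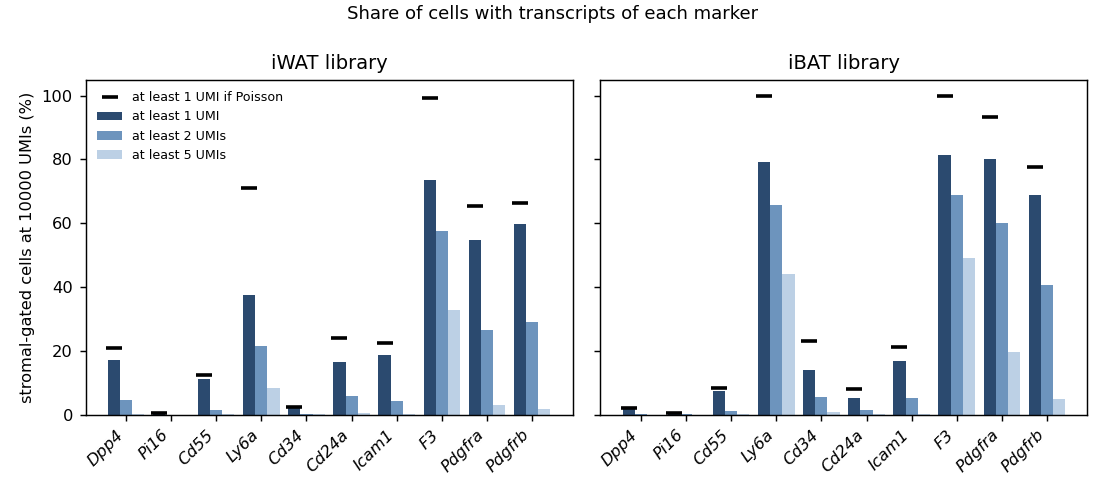
Share of stromal-gated cells, each thinned to 10000 UMIs, with at least 1, 2 or 5 UMIs of each marker (bars), by library; dashes give the share with at least 1 UMI if UMIs fell on cells at random. Ly6a in iWAT was found in 37.4% of cells where random placement gives 70.9%.

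Free RNA and mixed capture give UMIs in cells that do not make a transcript, so shares were set beside Ptprc-gated and Epcam-gated cells. Whether these cells make a marker themselves was not tested. In the Ptprc-gated cells left by thinning (63 of 91 in iWAT and all 184 in iBAT, with medians of 12527 and 23714 UMIs before it) F3 was found in 30.2% and 32.6%, Pdgfra in 22.2% and 25%, and Pdgfrb in 20.6% and 20.7%. Ly6a was found in 23.8% (13.98 to 36.2) and 28.3% (21.9 to 35.4) of them, against 37.4% and 79.2% of stromal-gated cells, and its level there was 85.9% and 24.9% of the stromal-gated level. Their F3 level was 16.5% of the stromal-gated level in iWAT and 19.9% in iBAT. In those same cells 7 mesenchymal genes outside the members and the gate summed to 20.3% and 19.9% of their stromal-gated level. In thinned Epcam-gated iWAT cells F3 was found in 57.3% (55.5 to 59.2), against 73.5% of stromal-gated iWAT cells, and its level was 39.6% of theirs. Dpp4 was found in 3.90% of 2771 thinned Epcam-gated iWAT cells (median 11469 UMIs before thinning) and in 1 of 184 Ptprc-gated iBAT cells (0.543%, 0.0138 to 2.99). Its share in stromal-gated iWAT cells was above the former, and that in stromal-gated iBAT cells lay within the interval of the latter. By level, Dpp4 stood at 0.436 CPM (0.0529 to 1.58, from 2 UMIs) in Ptprc-gated iBAT cells. Its level in stromal-gated iBAT cells, 2.11 CPM (2.01 to 2.22), lay above that interval. Pi16 was found in 1 of 63 Ptprc-gated iWAT cells and 1 of 184 in iBAT, shares of 1.59% and 0.543%, and its stromal shares of 0.319% and 0.365% are not above these. Among Epcam-gated iWAT cells it was found in 0 of 2771, which allows a share of up to 0.108% (a limit of 3 counts). The Cd34 share of 2.08% in iWAT stood beside 1.30% (0.911 to 1.79) in Epcam-gated cells and 3.17% in Ptprc-gated cells, the latter from 2 of 63 cells with an interval of 0.387 to 11. Its own interval, 1.88 to 2.29, lay above that of the Epcam-gated cells and within that of the Ptprc-gated cells. In iBAT the Cd34 share of 14.0% stood above 3.26% (1.21 to 6.96) in Ptprc-gated cells. Cd55 was found in 2.72% (0.888 to 6.23) of those iBAT cells, below its stromal-gated share of 7.30%. Icam1 was found in 7.76% of Epcam-gated iWAT cells. Icam1 was found in 22.2% and 34.2% of Ptprc-gated cells and Cd24a in 22.2% of those in iWAT, at or above the stromal-gated shares. By level, Cd24a stood at 51.9 CPM in Ptprc-gated iWAT cells and at 8.95 CPM in Ptprc-gated iBAT cells. The Cd24a share of 5.10% in iBAT was close to 4.35% (1.89 to 8.39) in Ptprc-gated cells.

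The Cd24a of stromal-gated iWAT cells was also set beside that of the epithelial cells in the same culture. In stromal-gated cells 7 epithelial markers, Epcam left out, summed to 28.5 CPM, which is 1.03% of their sum in Epcam-gated cells. Cd24a stood at 7.03% of its Epcam-gated level and Ly6a at 15.1%. The part of epithelial RNA in these levels was not tested. In iBAT the same 7 epithelial genes summed to 0.445 CPM in stromal-gated cells.

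UMIs of several markers were gathered in part of the cells. If the Ly6a UMIs of iWAT had fallen on cells at random, 70.9% of cells would have had one, against 37.4% found, and 8.36% of cells had 5 or more. The variance of Ly6a UMIs per cell was 5.96 times the mean in iWAT and 10.9 times in iBAT, and that of F3 was 10.1 and 13.3 times. For F3 random placement gives 99.2% of iWAT cells with a UMI, against 73.5% found, and 32.7% had at least 5. The 10% of iWAT cells richest in Ly6a held 63.6% of its UMIs. The variance was 1.42 and 1.61 times the mean for Pdgfrb and 1.53 and 1.34 times for Dpp4. This measure falls towards 1 as a gene gets rarer, so it ranks no gene against another. The Cd34 UMIs of iBAT had a variance of 2.81 times the mean, and 236 cells had 5 or more.

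In most thinned cells transcripts of only some of the markers were found, and a marker not found may still be present. The median number of members found per thinned cell was 3 in iWAT and 4 in iBAT, 467 and 300 cells had none, and 0 cells had 9 or 10, which by the same limit of 3 counts allows a share of up to 0.0154% and 0.0112% of cells.

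Pairs of members were then asked whether they were found in the same cells more or less often than independent detection gives. An odds ratio of 1 means no relation, and a pair was called when its ratio was 2 or more, or 0.5 or less, in both libraries. Of 45 member pairs 0 were called together and 0 apart, the 9 pairs with Pi16 included, which was found in under 1% of cells. The count called together was 1 at 5000 UMIs, 2 at 15000 UMIs and 8 when 2 UMIs made a cell positive, so this 0 depends on depth and threshold. Among 70656328 pairs of genes found in 1% to 90% of cells, 0.0486% were called together and 0.00788% apart. The median odds ratio of the member pairs was 1.17 in iWAT and 1.30 in iBAT, and that of all pairs 1.01 in both. For the 36 pairs of the other 9 members, which meet the same detection limits as all pairs, it was 1.18 and 1.28. In 25 of the 45 pairs the ratio was above 1 in both libraries, in 10 it was below 1 in both, and in 10 the libraries differed in direction. Only in 23 of the 45 did the intervals of the shares with and without the partner lie apart in both libraries. No count of directions over all pairs is given here, so these counts are not read as a trait of the markers.

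**Figure D4:**
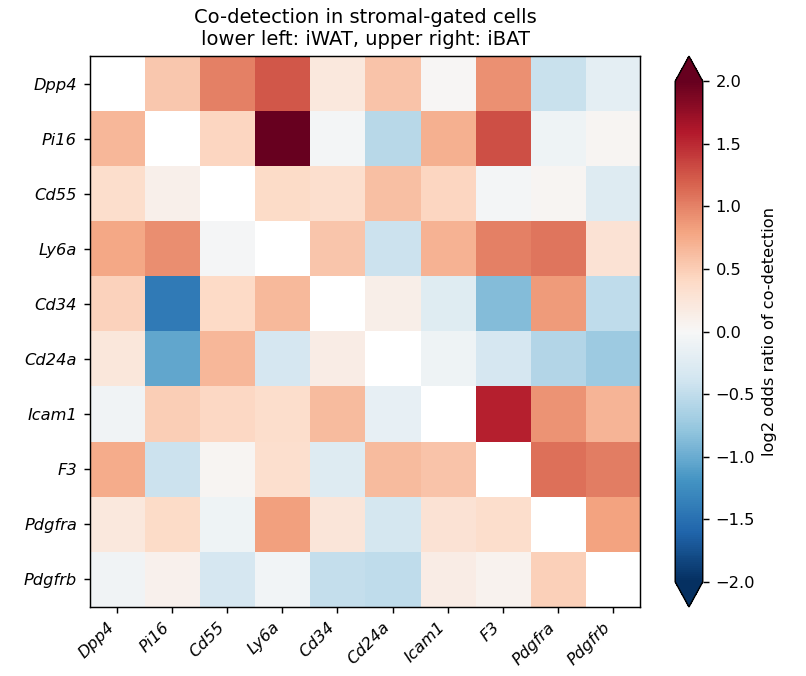
Odds ratio of co-detection (log2 colour scale) for each pair of markers in stromal-gated cells at 10000 UMIs, iWAT below and iBAT above the diagonal. The Icam1 and F3 pair is at 1.48 in iWAT and 2.95 in iBAT, and colours of the Pi16 row and column rest on 62 and 98 cells.

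Dpp4 was found somewhat more often with Ly6a and with F3. Of Dpp4-positive iWAT cells 48.1% (46.4 to 49.9) had Ly6a, against 35.2% (34.4 to 35.9) of Dpp4-negative cells, an odds ratio of 1.71, and in iBAT the shares were 90% and 79.0%, a ratio of 2.37. F3 was present in 81.1% of Dpp4-positive and 72.0% of Dpp4-negative iWAT cells (1.67) and in 89.1% and 81.2% of such iBAT cells (1.88). With Cd55, its fellow interstitial marker, the ratio was 1.28 in iWAT and 2.01 in iBAT. With Pi16 it rested on 15 and 2 cells that had both. With Icam1, the marker of committed cells, Dpp4 showed next to no relation in either direction, 0.948 in iWAT (18.1% against 18.9%) and 1.01 in iBAT (16.8% against 16.7%).

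Icam1 and F3 occurred together more often than independent detection gives, with odds ratios of 1.48 in iWAT and 2.95 in iBAT. F3 was present in 79.4% (78.0 to 80.7) of Icam1-positive and 72.2% (71.5 to 72.9) of Icam1-negative iWAT cells, and in 91.9% (91.0 to 92.6) and 79.3% (78.7 to 79.8) in iBAT. Pdgfra went with Ly6a at 1.77 and 2.09, and with Pdgfrb at 1.40 and 1.76. F3 went with Pdgfra at 1.27 in iWAT and 2.14 in iBAT. Among remaining stromal cells of iBAT the ratios of Pdgfra were lower, at 1.63 with Ly6a, 1.48 with Pdgfrb and 1.66 with F3. Cd24a and Pdgfrb were found together less often than independence gives, at 0.702 and 0.605, and among remaining stromal cells at 0.706 and 0.722. Cd24a and Pdgfra stood at 0.783 and 0.665, but among remaining stromal cells the iBAT ratio was 1.02. Cd34 and F3 stood at 0.837 in iWAT and 0.548 in iBAT, where 72.5% of Cd34-positive and 82.8% of Cd34-negative cells had F3.

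Read as a sorting scheme, the transcripts of Dpp4, Icam1 and F3 overlapped. Cells with F3 but without Dpp4 and Icam1 were 47.5% of iWAT and 64.8% of iBAT cells. Cells with none of the 3 were 19.8% and 17.1%. Cells with all 3 were 2.65% (2.43 to 2.88) in iWAT, where independent detection gives 2.35%, and 0.287% (0.226 to 0.358) in iBAT, where it gives 0.238%. Cells with Dpp4 alone were 2.78% and 0.182%, against 3.66% and 0.271% under independence. Cells with Icam1 alone were 3.44% in iWAT and 1.35% in iBAT, the latter 0.442 times the share under independence. A single UMI per gene decides these classes, so a negative cell is one in which no transcript was sampled. At that threshold F3 was also found in 30.2% of Ptprc-gated iWAT cells and 32.6% of Ptprc-gated iBAT cells. The part of free RNA in the positive cells was not tested.

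Cells with Cd34, Ly6a and Cd24a transcripts, the antigens of the classical sort, were 0.201% (0.143 to 0.274, 39 cells) in iWAT. In iBAT they were 0.622% (0.531 to 0.723, 167 cells). These are 1.57 and 1.10 times the shares under independence, and the iBAT share under independence, 0.565%, lay within the interval. Cells with Dpp4, Pi16 and Cd55 were 3 in iWAT and 0 in iBAT. Cells with both receptor genes and Ly6a were 14.8% in iWAT and 46.9% in iBAT. Cells with none of these were 13.9% in iWAT and 2.96% in iBAT, 1.21 and 2.30 times the shares under independence. The stromal gate also holds the narrower classes. In thinned Cdh15-gated iBAT cells Pdgfra was found in 18.85%, Pdgfrb in 17.2% and Ly6a in 31.15%, whereas Rgs5-gated iBAT cells had Pdgfrb in 89.8%. The part of such classes in these shares was not tested.

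Genes of each progenitor class were then compared between cells with and without the marker of that class. A gene was above the floor with at least 10 CPM in the positive or the negative cells of each library, and it counted when it was 1.5-fold or more higher in marker-positive thinned cells of both. For Dpp4 (3311 and 470 positive cells) 0 of 6 interstitial genes above the floor counted, and 0.157% of 8268 genes did. Ackr3, a chemokine scavenger gene, was nearest at 1.86-fold (1.73 to 1.99) in iWAT and 1.34-fold (1.09 to 1.62) in iBAT, and it counted when the cells were thinned with another random seed, so this 0 rests on the draw. Mfap5 was at 0.976 and 1.47, Creb5 at 1.42 and 1.28, and Pcolce2, a collagen-processing enhancer gene, at 0.667 and 1.12. Cspg4 and Mcam, which encode mural cell surface proteins, were lower in Dpp4-positive cells of both libraries, Cspg4 at 0.526 and 0.367 and Mcam at 0.546 and 0.389. Mcam was above the floor in Dpp4-negative cells only. The share of all genes so lowered was 0.145%.

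For Icam1 (3655 and 4486 positive cells) 0 of 8 committed genes above the floor counted, and 0 list genes were 1.5-fold or more lower in both libraries, where 0.0121% of all genes were. Fabp4 was at 1.46 in iWAT and 0.657 in iBAT, Pparg at 1.26 and 0.685, and Cebpa at 1.27 and 1.37. Of 6 regulatory genes above the floor 3 counted, and 0.376% of 8250 genes did. Gdf10, a secreted factor of the TGF-beta family, was 2.77-fold (2.57 to 2.98) higher in iWAT and 3.45-fold (3.27 to 3.63) in iBAT. Clec11a, a secreted lectin gene, was at 1.51 and 2.32 and was above the floor in Icam1-positive cells only. Cygb stood at 1.60 and 1.81.

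For F3 (14300 and 21858 positive cells) 1 of 4 regulatory genes counted, and 0.303% of 8241 genes did. It was again Gdf10, at 18.6 CPM with and 5.42 CPM without F3 in iWAT, and 25.5 and 6.70 CPM in iBAT, 3.44-fold (3.04 to 3.90) and 3.81-fold (3.41 to 4.27). It was above the floor in F3-positive cells only. Cygb was at 1.09 and 2.02 and Mgp at 0.634 and 1.08. Lpl, the lipoprotein lipase gene of the committed list, was at 1.21 in iWAT and 2.57 in iBAT, and Cebpa at 0.869 and 2.37. Cspg4 was lower in F3-positive cells of both libraries, at 0.563 and 0.467, where 0.182% of all genes were. Cells with at least 5 F3 UMIs gave Gdf10 at 2.96 and 3.40. The relation of F3 and Icam1 to each other means that their positive cells were partly the same cells.

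**Figure D5:**
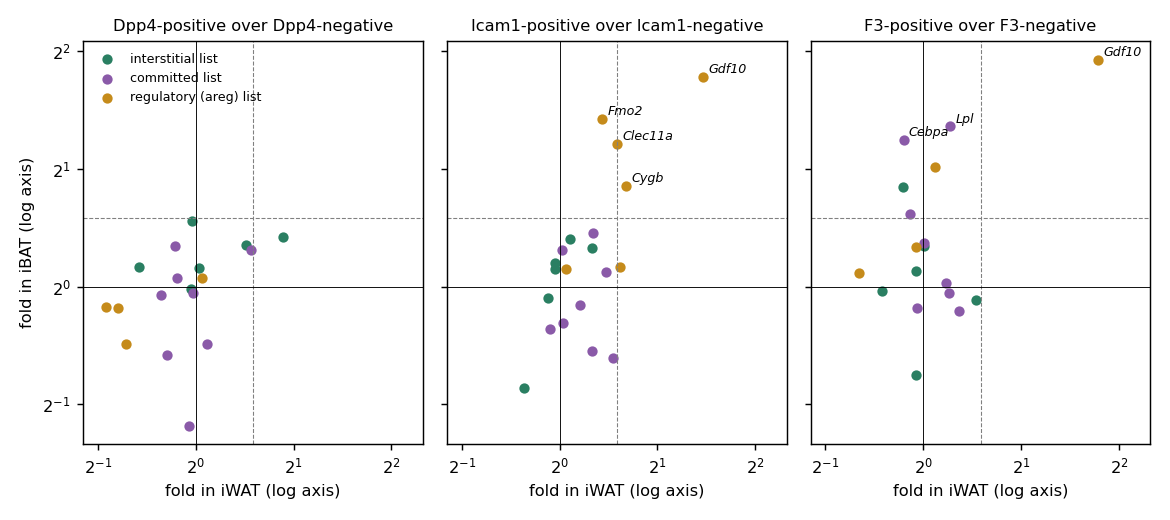
Fold of each list gene above the floor in cells with over cells without Dpp4, Icam1 or F3, iWAT on x and iBAT on y, both log axes; dashed lines are at 1.5. In the middle and right panels Gdf10 lies beyond both lines, at 2.77 and 3.45 for Icam1 and at 3.44 and 3.81 for F3.

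Cells were also split by transcripts of the cell cycle genes Mki67, Top2a, Cdk1, Ccnb1, Birc5 and Ube2c, and those with 2 or more such UMIs after thinning, 65.7% in iWAT and 68.1% in iBAT, are called cycling for short. The part of free RNA in this split was not tested, and the shares do not count dividing cells. Icam1 was lower in cycling than in other cells of both libraries, at 22.8 against 30.8 CPM in iWAT and 22.2 against 27.5 in iBAT. In iBAT F3 stood at 756 CPM in cycling and 1049 in other cells, Ly6a at 605 and 834, and Pdgfrb at 139.8 and 173. In iWAT the same genes differed little, with ratios of 1.03, 0.948 and 0.994. Cd34 in iBAT went the other way, at 29.2 CPM (28.4 to 29.98) in cycling and 19.5 (18.5 to 20.4) in other cells. Dpp4 was at 0.920 times in iWAT and 0.946 times in iBAT, the latter with an interval of 0.79 to 1.14.

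The genes most like each member were ranked over 9585 genes by the smaller of its correlations in the libraries, across 19446 and 26859 thinned stromal-gated cells. Cells of a library share its depth and its free RNA, so these values are descriptions. Ly6a was nearest to Ly6c1 (r of 0.34 in iWAT and 0.47 in iBAT), with which it shares 3′ sequence, then to Sod3, an extracellular superoxide dismutase gene (0.27 and 0.26), and Sfrp1, a Wnt antagonist gene (0.25 and 0.32). F3 was nearest to Col12a1, a fibril-associated collagen gene (0.28 and 0.46), then Adm, the peptide hormone adrenomedullin (0.24 and 0.34), and Ccn1, a matricellular gene (0.24 and 0.32). Pdgfra was nearest to Tgfbr3, a TGF-beta co-receptor gene (0.24 and 0.27), Fgf7, a growth factor for epithelium (0.23 and 0.28), and Plpp3, a lipid phosphatase gene (0.23 and 0.32). Pdgfrb was nearest to the fibrillar collagen genes Col3a1 (0.20 and 0.29), Col1a1 and Col1a2, and Icam1 to Mmp3, a matrix metalloproteinase gene (0.15 and 0.26). For Cd34 the first was Spp1, the secreted phosphoprotein osteopontin, at 0.0724 in iWAT and 0.24 in iBAT, and the second was Dcn, the proteoglycan decorin, at 0.0664 and 0.0686. The smaller correlation of the first-ranked gene was 0.121 for Cd24a (Ezr), 0.0848 for Cd55 (Gsto1), 0.0758 for Dpp4 (Lrrn4cl), 0.0724 for Cd34 and 0.0345 for Pi16 (Adgrd1), and correlations that weak in sparse counts are no finding. Dpp4, Pi16 and Cd34 were themselves found in fewer than 5% of cells of a library.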

How the data were processed

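The authors sequenced 1 BD Rhapsody whole-transcriptome library per depot and processed the reads on a commercial cloud service. Its version and its treatment of reads with several matches are not given in the sources used here. The submitters' processing notes name mm39 and Seurat 5.0.0. The deposited values are unnormalized UMI counts of genes in single cells, with 0 sample tag features. Cells were kept by the limits of the published methods. Counts of kept cells were summed by library and class and scaled to 1000000 UMIs (CPM), with exact Poisson and Clopper-Pearson intervals at 95% that cover counting error only. Ratios carry exact conditional intervals. Cells were thinned without replacement to 10000 UMIs for shares, odds ratios (0.5 added to each count), list folds and Pearson correlations of log2(UMIs + 1). Routines in Python 3.11.15 with numpy 2.4.6 and scipy 1.17.1 were tested on simulated data. With 1 library per depot no test was possible.

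The members, lists, gates and rules were chosen with earlier results of these data known. The text names all members, for each the nearest of its 5 most correlated genes among those found in 5% of cells of both libraries, and of each list the genes past the stated fold and at most 4 others. Doublets were scored with Scrublet, as run by scanpy 1.11.5, and kept. Its automatic threshold marked 407 of 29744 kept cells in iWAT and 0 of 28215 in iBAT, too few to use, so the 8% of cells with the highest score were left out as an alternative. Other alternatives changed the scaling, the floor, the gate, the cell filter, the thinning and its seed, the UMIs that make a cell positive and the cycling cells. One gated class, which was set apart from the remaining stromal cells, and one correlated gene are not reported here.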

Additional observations from a re-analysis of the deposited data

Results flagged for a closer look

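Results stand here because they went in opposite directions in the libraries, with intervals apart from no difference in each. These intervals cover counting error only. The differences between the libraries were not tested, since there was 1 library per depot. The odds ratio of Dpp4 and Pdgfra was 1.15 in iWAT and 0.737 in iBAT, that of Cd34 and Icam1 was 1.56 and 0.848, and that of Cd24a and F3 was 1.56 and 0.791. Among remaining stromal cells the Cd24a and F3 ratio in iBAT was 1.18, so that opposite direction was lost. In cycling over other cells, Cd34 stood at 0.816 times (0.672 to 0.993) in iWAT and 1.501 times in iBAT. F3 stood at 1.03 times (1.015 to 1.043) in iWAT and 0.721 times in iBAT. The variance of UMIs per iWAT cell was 1.26 times the mean for Cd34 and 10.1 times for F3. Whether the iWAT ratios of Cd34 and F3 are apart from 1 is therefore not settled. Pdgfra stood at 1.23 times in iWAT and 0.943 times in iBAT. The iWAT values of Cd34 rest on 404 positive cells. Dpp4 in iBAT rests on 470.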

How the results depend on the processing

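Of the recomputed counts 59 stayed within 1.5 times their value, or stayed at 0, and 8 did not. Most of the 59 were counts of 0 that stayed 0, so this tally is no measure of robustness. Ly6a, Cd34 and Pdgfra (iBAT) and Dpp4 and Cd24a (iWAT) kept their direction and call with median-of-ratios scaling, no floor, no upper limit on genes, Col1a1 of 10 or more, remaining stromal cells only, without the cells of highest doublet score (chosen after seeing the data) and without cycling cells. Without cycling cells F3 was called too, at 2.21-fold. With a floor of 50 CPM 0 members were higher in iWAT, and Cd34 was lost from those higher in iBAT, which left 2. Pairs called together were 1 at 5000 UMIs (Dpp4 and Pi16), 2 at 15000 UMIs (Dpp4 and F3, Pi16 and Ly6a) and 8 when 2 UMIs made a cell positive. Of those 8, 6 involve Pi16, which had 1 and 3 such cells, and the other two are Dpp4 with Ly6a and Cd55 with Cd24a. Interstitial genes counted for Dpp4 were 1, Ackr3, with a second seed, at 5000 and 15000 UMIs and at 2 UMIs. At 15000 UMIs Dpp4 was found in 22.4% of iWAT and 2.36% of iBAT cells, and at 5000 in 9.90% and 0.882%. The causes were not tested. Values of Pi16, and of Cd34 in iWAT, rest on few UMIs. No paired analysis was possible because each depot has 1 library and the labels carry no replicate numbers.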
